A study of Homo sapiens with 4 samples.

Results

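The transcripts of 10 enzymes of lower glycolysis, from aldolase to lactate dehydrogenase, were followed on the 4 arrays of this study. The genes ALDOA, ALDOC, TPI1, GAPDH, PGK1, ENO1, ENO2, PKM, LDHA and LDHB were listed by name, not by a rule on their signals. The list was chosen with earlier results of these data known. A probe set, the group of array probes that together report on a gene, was taken for a gene where the platform annotation names that gene alone. This held for 11 of 33297 probe sets, and for TPI1, which has 2, the one with the higher mean over the 4 arrays was used, so the list makes up 10 of 18417 measured genes. The arrays carried RNA from HT1080 cells, a human fibrosarcoma line, kept for 36 h at 1% oxygen (hypoxia) or at 21% oxygen (control), all in medium with little serum. In both conditions RNA was taken as total RNA, which stands for the expression level, and as ER-RNA, the RNA of a biochemically isolated endoplasmic reticulum (ER) fraction, before which cells were treated with the translation inhibitor cycloheximide according to the methods. Each of the 4 groups, total-RNA hypoxia, total-RNA control, ER-RNA hypoxia and ER-RNA control, was 1 array with RNA pooled from 5 experiments. With no replicate arrays the spread between experiments is unknown, and the comparisons carry no p-values. In bulk RNA of this kind, fewer cells that express a gene and less of its RNA per cell cannot be told apart.

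Lower glycolysis begins where aldolase splits fructose 1,6-bisphosphate into a pair of triose phosphates, which triosephosphate isomerase interconverts. GAPDH and phosphoglycerate kinase then make the first ATP of the pathway, enolase and pyruvate kinase make the rest, and lactate dehydrogenase turns pyruvate into lactate and gives back the NAD+ that GAPDH needs. Cells without enough oxygen for respiration depend on these steps for ATP, and genes of the pathway are well-known targets of hypoxia-inducible factor (HIF), which binds a short DNA core in their regulatory regions. Several steps have more than 1 isoform, such as the broadly expressed aldolase A and enolase 1 and the brain-enriched aldolase C and enolase 2, while lactate dehydrogenase is a tetramer of the subunits that LDHA and LDHB encode.

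The signals are log2 values after RMA normalization by the authors. Their medians were 7.49 in hypoxia and 7.41 in control for total RNA, and 6.34 in hypoxia and 6.25 in control for ER-RNA, so hypoxia was compared with control within each fraction. Of the markers of mesenchymal cells, 7 of 8 lay above the array median in total RNA in each condition, with VIM at 13.11 in hypoxia and 12.52 in control. S100A4 was the exception. Of these markers VIM rose and SPARC fell in both fractions. The epithelial marker EPCAM was at 5.40 in hypoxia and 5.60 in control, below both medians, as were all 3 measured leukocyte and all 3 measured endothelial markers in total RNA, while KRT19 was the 1 of 4 epithelial markers above them. In ER-RNA the leukocyte marker CD14 and the endothelial marker PECAM1 passed the expression filter, without a call. For each fraction, probe sets above the 50% quantile of the hypoxia array, the control array or both counted as expressed. A probe set was called where, in addition, hypoxia and control differed by more than 1.4-fold and the z-score was over 3 in size, the z-score being the log2 fold change divided by an SD that a loess curve gives for probe sets of that signal. The curve is fitted to the differences between hypoxia and control themselves, so this SD is no replicate error. It stands for the spread of the single signals of a pair, which is smaller than the spread of log2 fold changes. A z-score here therefore does not count SDs of the log2 fold change. The SD is 1 reading of the study's model, and calls with z-scores near 3 depend on it. All 10 genes were expressed in both fractions.

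ALDOC, PGK1 and ENO2 rose in both fractions, ALDOA, TPI1, GAPDH, ENO1, PKM and LDHA had small positive log2 fold changes that were not called, and LDHB was the 1 gene with a lower signal in hypoxia, also not called. Thus 3 of the 10 genes rose in total RNA, where 3.27% of the expressed probe sets rose, and the same 3 rose in ER-RNA, where 1.55% did. The share of probe sets that rose in both fractions was 0.698% of those expressed in both. Since the 10 genes were chosen with earlier results of these data known, their counts beside these shares are a description only. None of the 10 fell, whereas among the expressed probe sets 6.39% fell in total RNA, and 7.31% fell in ER-RNA. Including uncalled genes, 9 of 10 had a higher signal in hypoxia in each fraction, where 49.4% of the expressed probe sets did in total RNA and 51% in ER-RNA. In total RNA the 10 genes had a median log2 fold change of 0.40, beside -0.0064 over the expressed probe sets. The ER-RNA medians were 0.32 for the 10 genes and 0.012 for the expressed probe sets.

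**Figure D1:**
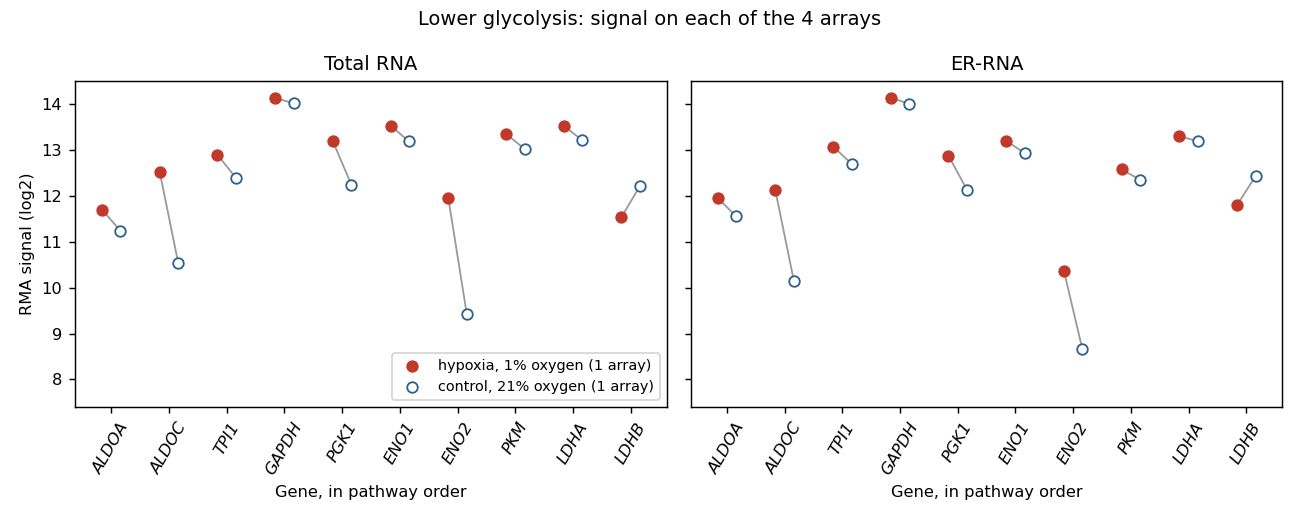
RMA signal (log2, vertical axis) of the 10 genes in pathway order (horizontal axis) in total RNA (left panel) and ER-RNA (right panel), with hypoxia as filled points and control as open points, 1 array each, joined by a line. ENO2 and ALDOC show the steepest differences between hypoxia and control, and LDHB is the 1 gene whose hypoxia point lies below its control point in both fractions.

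Most of these transcripts gave signals near the top of the arrays. In total RNA the pair mean, the mean of hypoxia and control, was above 11.16, the limit of the brightest 5% of probe sets, for every gene but ENO2, and in ER-RNA it was above the corresponding 10.53 for the same 9 genes. Among the brightest probe sets of total RNA, 3.24% rose and 5.05% fell, and in ER-RNA 1.68% rose and 6.55% fell. A higher signal in hypoxia was found for 43.2% of the brightest probe sets in total RNA and likewise 43.2% in ER-RNA. Over the brightest probe sets, the median change on the log2 scale was -0.053 for total RNA and -0.050 for ER-RNA, and the central 90% of them lay between -0.69 and 0.57 in total RNA and between -0.86 and 0.48 in ER-RNA. Against this background ALDOC and PGK1 lay above the central 90% in both fractions, LDHB lay inside it in both, and the other 6 genes lay inside it too.

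**Figure D2:**
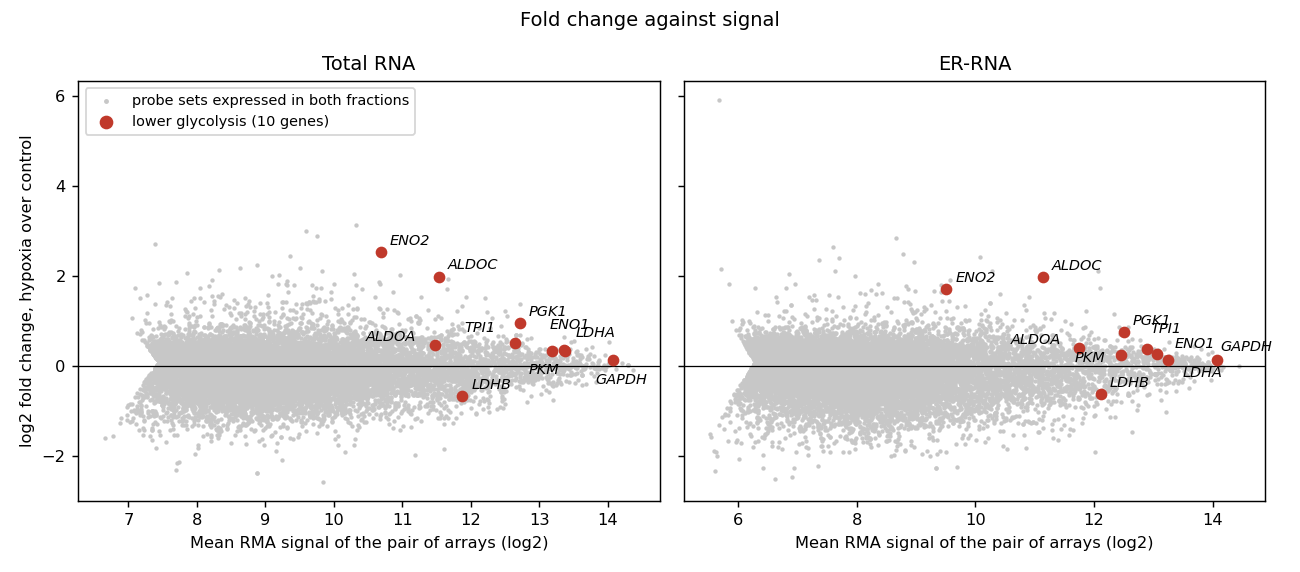
log2 fold change, hypoxia over control (vertical axis), against the mean RMA signal of the 2 arrays of a pair (log2, horizontal axis) in total RNA (left) and ER-RNA (right). Grey points are the 15903 probe sets expressed in both fractions and red points the 10 genes. ENO2, ALDOC and PGK1 lie above the dense part of the grey points, while GAPDH sits at its narrow right end.

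At the aldolase step, ALDOC rose and ALDOA did not pass the thresholds. ALDOC (probe set 8013660), which encodes aldolase C, had a signal of 12.52 in hypoxia and 10.54 in control in total RNA, and of 12.12 in hypoxia and 10.15 in control in ER-RNA. Both hypoxia values thus lay well above both control values. Its log2 fold change of 1.98 in total RNA had a z-score of 7.88, and that of 1.97 in ER-RNA had one of 6.88, which ranked it at 15 of 11530 expressed genes in total RNA and at 9 of 11876 in ER-RNA. The rise was 3.95-fold and 3.91-fold, so the fractions differed by only -0.014 on the log2 scale, the smallest difference but 1 among the 10 genes.

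ALDOA (probe set 7994737), the aldolase of muscle and most other tissues, had a signal of 11.70 in hypoxia and 11.24 in control in total RNA, and of 11.95 in hypoxia and 11.56 in control in ER-RNA. These are log2 fold changes of 0.46 and 0.40, or 1.38-fold and 1.32-fold, under the fold threshold. With z-scores of 1.82 and 1.58 they were also short of the z threshold. The log2 fold change of ALDOC exceeded that of ALDOA by 1.52 in total RNA and 1.57 in ER-RNA, while the SDs fitted to the genes combine to 0.36 and 0.38. The ratio of their fold changes, ALDOC over ALDOA, was 2.87 for total RNA and 2.97 for ER-RNA.

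The window from 250 bases before to 50 bases after each gene start in RefSeq was searched for ACGTG and GCGTG on both strands, the core that HIF is known to bind. The letters CACGTG hold ACGTG on both strands and so count as 2 matches. All 10 genes have at least 1 window, 14 in all, and 13 of these (92.9%) hold a match, as do 48.4% of all 35116 windows. Both cores contain CG, and the GC content of the windows had a median of 69.8% for the 10 genes and 58.7% overall. Of the 19945 windows with at least as much GC as the lowest of the 14, 63.0% hold a match. That lowest value is 55.7%, so these windows are not matched in GC content to the 14. The first and second windows of ALDOA overlap but are counted separately. A match describes the letters of the window and does not show a bound site. The bases before the start of ALDOC, the aldolase gene that rose, are shown with matches in capitals (chr17:28576896-28577145, minus strand, GRCh38.p14). They hold 5 matches, against 1 or 2 in each of the 3 windows of ALDOA.
ALDOC: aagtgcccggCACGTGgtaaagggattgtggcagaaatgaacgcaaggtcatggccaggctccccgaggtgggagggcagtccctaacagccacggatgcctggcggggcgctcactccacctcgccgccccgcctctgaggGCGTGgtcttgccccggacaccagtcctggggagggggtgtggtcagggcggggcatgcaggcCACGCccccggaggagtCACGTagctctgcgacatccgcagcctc
The ALDOA window with 2 matches is shown for comparison (chr16:30064247-30064496, plus strand), in which the capitals mark the 1 place where both strands match.
ALDOA: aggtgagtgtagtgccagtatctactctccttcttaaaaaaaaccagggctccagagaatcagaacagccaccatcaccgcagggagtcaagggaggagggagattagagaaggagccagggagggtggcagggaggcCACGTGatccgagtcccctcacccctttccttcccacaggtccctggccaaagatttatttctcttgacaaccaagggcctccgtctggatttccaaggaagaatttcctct

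TPI1, triosephosphate isomerase, is reported by a pair of probe sets. The brighter one (8180371) had a signal of 12.89 in hypoxia and 12.39 in control in total RNA, and of 13.07 in hypoxia and 12.70 in control in ER-RNA. Its log2 fold change amounted to 0.50 in total RNA (1.42-fold, z-score 2.73) and 0.37 in ER-RNA (1.30-fold, z-score 2.34). In total RNA it therefore passed the fold threshold but not the z threshold. The other probe set (7953508) had a signal of 11.18 in hypoxia and 10.64 in control in total RNA, and of 11.20 in hypoxia and 10.65 in control in ER-RNA, which gives log2 fold changes of 0.54 and 0.55. Both probe sets were higher in hypoxia in both fractions, and neither was called.

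GAPDH (probe set 7953385), which couples the oxidation of glyceraldehyde 3-phosphate to the uptake of phosphate, was not called in either fraction. Its signal was 14.13 in hypoxia and 14.01 in control in total RNA, and 14.14 in hypoxia and 14.003 in control in ER-RNA. The log2 fold changes of 0.12 (1.09-fold) and 0.13 (1.10-fold) were far below the fold threshold. In ER-RNA the z-score was nevertheless 5.23, and in total RNA it was 2.79. In total RNA the SD fitted at this signal was 0.043, against 0.25 for ALDOC. The ER-RNA fit gave 0.025 for GAPDH and 0.29 for ALDOC. The brightest probe set of any kind reached 14.32 in hypoxia and 14.42 in control in total RNA, and 14.43 in hypoxia and 14.45 in control in ER-RNA, so GAPDH lay close to the highest values measured. Whether the upper end of the signal range narrowed its difference was not tested. RefSeq also lists 65 pseudogenes named after GAPDH, against 0 for ALDOC and ENO2 and between 2 and 6 for each of the other 7 genes. How far their sequences share probes with the genes was not tested.

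GAPDH is often used as a reference for other transcripts, and 8 further genes of that use were measured. None of the 8 was called in total RNA, and their log2 fold changes had a median of -0.15 there and of -0.27 in ER-RNA. The highest in total RNA was HPRT1, a purine salvage enzyme (0.23), and the highest in ER-RNA was the lysosomal enzyme gene GUSB (0.23). ACTB, β-actin, was the lowest in total RNA (-0.44, not called) and fell in ER-RNA (-0.58, z-score -4.56), where SDHA, a subunit of respiratory complex II, was lowest at -0.76 without being called. A higher signal in hypoxia, as for GAPDH, was found for 3 of the 8 in total RNA, but for 1 in ER-RNA.

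PGK1 (probe set 8168500), the phosphoglycerate kinase of somatic cells and a classical HIF target, rose in both fractions. In total RNA it had a signal of 13.19 in hypoxia and 12.24 in control, and in ER-RNA of 12.87 in hypoxia and 12.13 in control. The log2 fold change amounted to 0.94 in total RNA (1.92-fold, z-score 5.28) and 0.74 in ER-RNA (1.67-fold, z-score 3.79). This placed it at 173 of 11530 expressed genes in total RNA and at 202 of 11876 in ER-RNA. With the SD taken from the scaled MAD the call in ER-RNA was lost. The window before its start is shown because PGK1 was, beside ALDOC and ENO2, the other gene that rose. It holds 3 matches close together (chrX:78103998-78104247, plus strand), and a further match lies after the start.
PGK1: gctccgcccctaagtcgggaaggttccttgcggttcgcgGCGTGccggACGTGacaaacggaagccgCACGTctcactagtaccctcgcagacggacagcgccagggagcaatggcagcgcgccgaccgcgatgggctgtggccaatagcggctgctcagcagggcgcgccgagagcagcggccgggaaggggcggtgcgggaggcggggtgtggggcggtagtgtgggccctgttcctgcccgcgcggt

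The enolase step had the largest rise of the 10 genes in total RNA. ENO2 (probe set 7953532), the enolase typical of neurons, had a signal of 11.95 in hypoxia and 9.42 in control in total RNA, and of 10.36 in hypoxia and 8.66 in control in ER-RNA. The log2 ratio of hypoxia to control was 2.53 in total RNA (5.76-fold, z-score 9.14) and 1.70 in ER-RNA (3.25-fold, z-score 5.24). In total RNA only 3 of the 11530 expressed genes had a higher value, and in ER-RNA ENO2 ranked at 17 of 11876.

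ENO1 (probe set 7912198), the enolase of most tissues, had a signal of 13.53 in hypoxia and 13.18 in control in total RNA, and of 13.20 in hypoxia and 12.93 in control in ER-RNA. Its log2 fold changes of 0.34 and 0.27, or 1.27-fold and 1.21-fold, were not called, with z-scores of 2.81 and 1.89. ENO2 therefore exceeded ENO1 in log2 fold change by 2.18 in total RNA and 1.43 in ER-RNA, beside combined SDs of 0.30 and 0.35. The ratio of their fold changes, ENO2 over ENO1, was 4.54 for total RNA and 2.70 for ER-RNA. By pair mean ENO1, unlike ENO2, lay within the brightest 5% of probe sets.

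The enolase genes differ in the core they carry, although neither has more than 2 matches. ENO2 (chr12:6914330-6914579, plus strand) has 1 match to ACGTG before its start, and ENO1 (chr1:8878687-8878936, minus strand) has 2 matches to GCGTG. Of all windows, 21.4% hold ACGTG and 36.5% hold GCGTG. Both are shown as the isoform pair with the widest difference in log2 fold change in total RNA.
ENO2: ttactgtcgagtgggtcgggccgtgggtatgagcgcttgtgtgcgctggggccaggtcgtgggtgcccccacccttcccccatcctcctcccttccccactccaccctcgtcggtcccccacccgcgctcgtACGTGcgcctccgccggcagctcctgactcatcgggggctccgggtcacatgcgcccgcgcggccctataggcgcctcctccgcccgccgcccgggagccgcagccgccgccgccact
ENO1: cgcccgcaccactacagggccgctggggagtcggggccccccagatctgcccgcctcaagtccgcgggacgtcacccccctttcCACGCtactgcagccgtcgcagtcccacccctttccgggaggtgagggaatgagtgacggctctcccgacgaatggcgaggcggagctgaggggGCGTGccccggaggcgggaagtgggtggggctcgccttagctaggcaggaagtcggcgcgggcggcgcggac

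PKM (probe set 7990151), pyruvate kinase, had a signal of 13.35 in hypoxia and 13.02 in control in total RNA, and of 12.58 in hypoxia and 12.35 in control in ER-RNA. On the log2 scale hypoxia exceeded control by 0.33 in total RNA (1.26-fold, z-score 2.41) and 0.23 in ER-RNA (1.17-fold, z-score 1.16), and the gene was called in neither. PKM is spliced into the muscle form and the form typical of proliferating cells, and the gene-level probe set gives no separate value for them. Its window holds 1 match, which lies after the start.

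The genes of the lactate dehydrogenase subunits had log2 fold changes of opposite sign, and neither was called. LDHA (probe set 7938777), whose subunit is typical of muscle and of cells that make lactate, had a signal of 13.53 in hypoxia and 13.21 in control in total RNA, and of 13.30 in hypoxia and 13.19 in control in ER-RNA. The log2 fold changes were 0.32 (1.25-fold, z-score 2.65) and 0.11 (1.08-fold, z-score 0.930). Of the 10 genes LDHA had the smallest positive value in ER-RNA. Other processing settings gave between 0.031 and 0.15 for it.

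LDHB (probe set 7961693), whose subunit is typical of heart and of cells that use lactate, had a signal of 11.54 in hypoxia and 12.21 in control in total RNA, and of 11.80 in hypoxia and 12.43 in control in ER-RNA. The ratio of hypoxia to control was 0.625 for total RNA and 0.647 for ER-RNA, or -0.68 and -0.63 on the log2 scale. Both passed the fold threshold downwards and both missed the z threshold of the SD model used here narrowly, with z-scores of -2.88 and -2.78. In total RNA 9.32% of the expressed probe sets had a lower log2 fold change than LDHB, and in ER-RNA 13.8% did. With each array centred on its median LDHB was called down in total RNA, and by fold change alone it was called down in both fractions.

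In log2 fold change LDHA exceeded LDHB by 1.00 for total RNA and by 0.74 for ER-RNA, and the ratio of their fold changes was 1.99 and 1.67. The combined SDs, again not the spread of such differences, were 0.26 in both fractions. The first window of LDHA (chr11:18394313-18394562, plus strand) holds 6 matches, of which 5 lie before the start, and the second holds 1. At least 4 matches are found in 4.4% of all windows. The window of LDHB (chr12:21657843-21658092, minus strand) holds none before the start and 1 after it. Both are shown as the isoform pair with log2 fold changes of opposite sign.
LDHA: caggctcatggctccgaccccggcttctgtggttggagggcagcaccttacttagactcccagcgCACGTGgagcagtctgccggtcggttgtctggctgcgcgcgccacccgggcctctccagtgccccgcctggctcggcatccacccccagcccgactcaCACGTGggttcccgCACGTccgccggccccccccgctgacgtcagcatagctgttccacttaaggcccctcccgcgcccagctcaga
LDHB: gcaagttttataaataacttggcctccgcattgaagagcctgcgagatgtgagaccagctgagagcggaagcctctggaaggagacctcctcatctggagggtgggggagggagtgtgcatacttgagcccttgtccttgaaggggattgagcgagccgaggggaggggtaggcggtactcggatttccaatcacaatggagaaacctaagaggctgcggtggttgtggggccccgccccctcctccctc

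**Figure D3:**
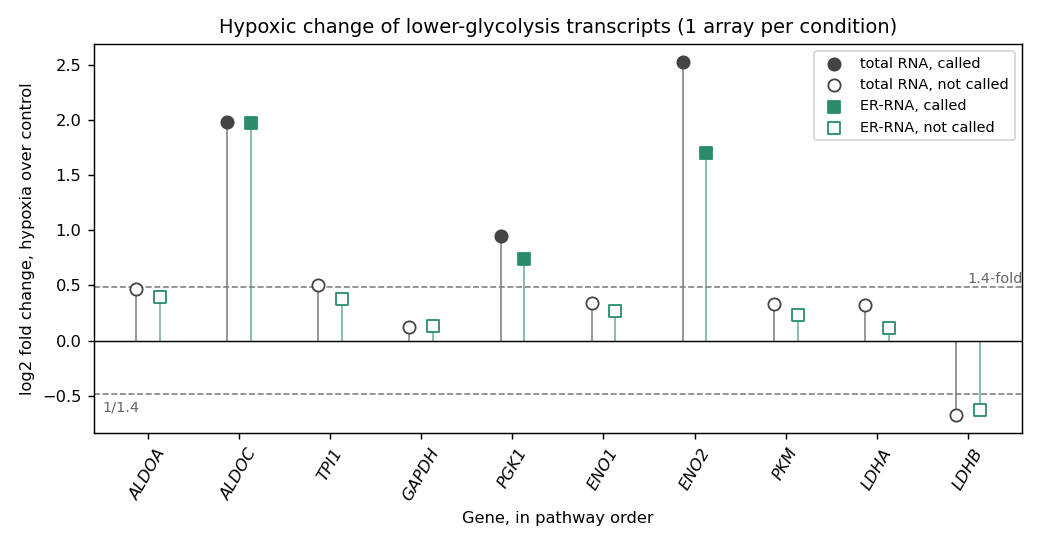
log2 fold change, hypoxia over control (vertical axis), of each gene in pathway order (horizontal axis) with total RNA as circles and ER-RNA as squares, from 1 array per condition. Filled symbols passed both thresholds and dashed lines mark 1.4-fold. Filled symbols appear at ALDOC, PGK1 and ENO2 in both fractions, and LDHB lies beyond the lower dashed line with open symbols.

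The order of the log2 fold changes was close in both fractions. In total RNA it ran from ENO2 (2.53) over ALDOC (1.98), PGK1 (0.94), TPI1 (0.50), ALDOA (0.46), ENO1 (0.34), PKM (0.33), LDHA (0.32) and GAPDH (0.12) to LDHB (-0.68). The neighbours TPI1, ALDOA, ENO1, PKM and LDHA each differ from the next by less than the SD fitted to either gene. That SD is no replicate error, and with 1 array per group neither their order nor the wider gaps can be called resolved. In ER-RNA ALDOC came before ENO2, ALDOA before TPI1 and GAPDH before LDHA. The place of TPI1 there depends on the probe set, as its other probe set (0.55) lay above ALDOA (0.40).

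The log2 fold change was smaller in ER-RNA than in total RNA for 8 of the 10 genes, with a median difference of -0.087, where 50.6% of the probe sets expressed in both fractions had a smaller value in ER-RNA. For ENO2 the difference was -0.82, and 1.62% of the 15903 probe sets had a lower one. For PGK1 and LDHA it was -0.20 each, and 26.1% and 26.2% had a lower one. Probe sets called up in total RNA and expressed in both fractions, 391 in number, had a median difference of -0.47 and a lower quartile of -0.79, and 340 of them had the smaller value in ER-RNA. ENO2 thus lay just below the lower quartile of the probe sets that rose, while ALDOC (-0.014) and PGK1 lay above their median. These probe sets were picked by their value in total RNA, so the medians only describe them. Whether the fractions differ was not tested.

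Within each condition the ER-RNA signal of the 10 genes lay near the total RNA signal. The median of ER-RNA minus total RNA was -0.27 in hypoxia and -0.065 in control, where the 1189 probe sets among the brightest in both fractions had medians of -0.17 and -0.11 and all probe sets expressed in both had -0.98 and -0.97. ENO2 (-1.59 in hypoxia and -0.76 in control) and PKM (-0.78 and -0.67) lay lowest. ALDOA (0.25 and 0.32), LDHB (0.26 and 0.22) and TPI1 (0.18 and 0.31) lay above 0 in both conditions. The products of these genes are cytosolic. A list of 10 other cytosolic proteins had medians of -0.32 in hypoxia and -0.25 in control, and 11 measured secreted and ER-resident proteins had -1.75 and -1.99. Of the cytosolic list only ACTB was called, down in ER-RNA. The chaperonin gene CCT2 was lowest in both fractions (-0.64 and -0.79 on the log2 scale of hypoxia over control) and the elongation factor gene EEF2 highest (-0.058 and 0.19). Of the secretory list LRP1 rose and HSPA5 and SPARC fell in total RNA, and SPARC fell in ER-RNA, where P4HB was highest (0.80) and HSPA5 lowest (-0.94), both uncalled. Genes of the secretory pathway thus did not have the higher relative signal in ER-RNA, and since a common scale of the fractions is not stated by the methods or labels, these differences are not read as shares of RNA at the ER.

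**Figure D4:**
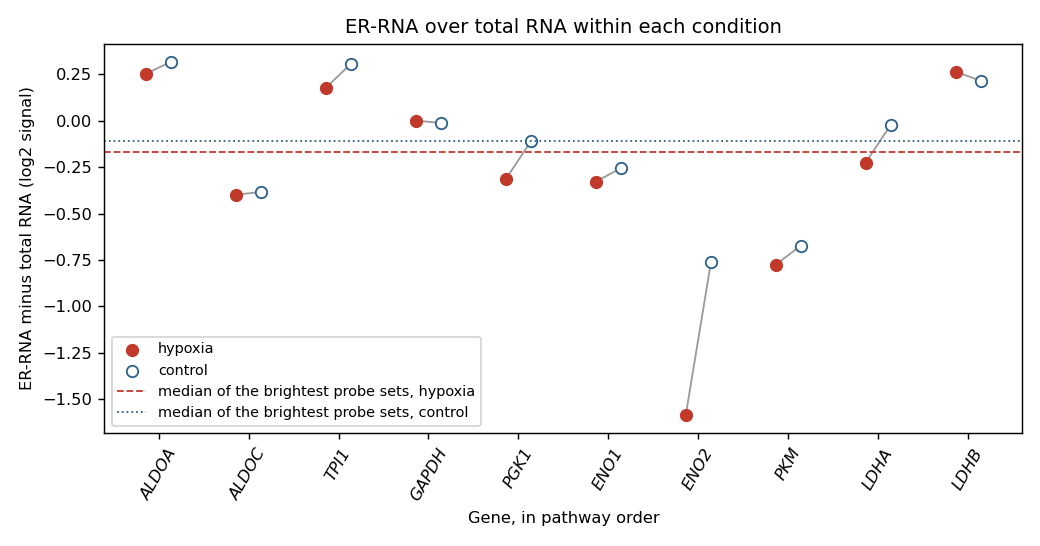
ER-RNA minus total RNA signal (log2, vertical axis) of each gene in pathway order (horizontal axis), with hypoxia as filled and control as open points, 1 array per group. The dashed and dotted lines are the medians of the 1189 probe sets that were among the brightest in both fractions. ENO2 shows the widest gap between hypoxia (-1.59) and control (-0.76).

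The steps before aldolase were compared in the same way. Of 10 measured genes of glucose uptake and upper glycolysis 6 rose in total RNA and none fell, while 2 rose and 1 fell in ER-RNA. Medians over the list on the log2 scale were 0.78 for total RNA and 0.79 for ER-RNA. PFKFB4, a regulator of glycolytic flux, was highest in both (2.10 and 1.14), followed in total RNA by hexokinase 2, HK2 (1.86), the glucose transporter SLC2A3 (1.21), GPI, which isomerises glucose 6-phosphate (1.05), the liver-type phosphofructokinase PFKL (0.94) and the glucose transporter SLC2A1 (0.62). In ER-RNA SLC2A3 (1.06) also rose, while HK2 (0.89, z-score 2.86), GPI (0.87, z-score 2.96), PFKL (0.92, z-score 2.99) and SLC2A1 (0.70, z-score 2.27) passed the fold threshold only. By fold change 6 of the 10 were thus past the threshold upwards in ER-RNA. In total RNA HK1 (0.49, z-score 1.76) and PFKP (0.55, z-score 2.06) passed the fold threshold too, without a call, beside 0.29 and 0.38 in ER-RNA. The count was thus smaller in ER-RNA by fold change as well, and the calls depend on the SD model used here. The muscle-type phosphofructokinase PFKM was lowest in both fractions, at -0.61 in total RNA without a call, and fell in ER-RNA by 1.22 on the log2 scale.

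Between PGK1 and the enolases lies phosphoglycerate mutase, whose main gene PGAM1 was not analysed here. PGAM2, the muscle form, was at 0.20 in total RNA and 0.60 in ER-RNA on the log2 scale of hypoxia over control and was not called. BPGM, which makes and removes 2,3-bisphosphoglycerate, fell in both fractions, by 0.86 in total RNA (z-score -3.63) and by 1.24 in ER-RNA (z-score -4.25). The tissue-restricted isoforms of the 10 enzymes gave low signals, and none of the 7 that were measured passed the expression filter in total RNA. In ER-RNA 3 did, of which GAPDHS, the sperm form of GAPDH, rose (0.92, z-score 3.07), with a signal of 6.79 in hypoxia and 5.87 in control, and PKLR, the pyruvate kinase of liver and red cells, had the lowest value at 0.064. GAPDHS passed the filter through the hypoxia array alone, where it was high, so its call rests in part on the filter.

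Of the genes that act on pyruvate and lactate after the last steps, 8 were measured, of which 1 rose and 2 fell in each fraction. PDK1, a kinase that restrains pyruvate dehydrogenase, rose by 1.51 in total RNA and by 1.06 in ER-RNA on the log2 scale. PDHA1, the catalytic subunit of that complex, fell by 1.01 in total RNA and by 1.30 in ER-RNA and was the lowest of the list in both. MPC1, a subunit of the mitochondrial pyruvate carrier, fell by 0.81 and 1.10. The medians over these genes were -0.14 for total RNA and -0.27 for ER-RNA. The lactate transporter genes SLC16A1 and SLC16A3 were not analysed here.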

How the data were processed

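Total RNA and ER-RNA from HT1080 cells in hypoxia or control were measured on 4 Affymetrix Human Gene ST arrays. Values deposited by the authors are log2 signals after RMA normalization, and the submitters' processing notes name Partek 6.4. Neither methods nor labels state whether all 4 arrays entered 1 run. The number of arrays limits the precision. Probe sets were named from the platform annotation and matched by gene identifier to RefSeq (GRCh38.p14), which succeeded for 19429 of 19460 that name 1 gene. The thresholds follow the methods. The SD came from a loess fit (span 0.75, degree 2) of the SD over both arrays of a pair on their mean. This is a reading of the methods, and its calls depart from the study's own. The study marks HK2, GPI, PFKL and SLC2A1 (as GLUT1) as significantly changed in ER-RNA, where none of them was called here. R 4.3.3, limma 3.58.1 and Python 3.11.15 were used. Simulated data were used to check the calls. Their noise had the same SD at every signal, unlike the SD fitted to the arrays. Whether the calls hold at the highest signals, such as that of GAPDH, was not tested. Expression across all probe sets gave the background, and 11 alternatives covered normalization, filter, SD model, fold threshold and probe sets. The 10 genes, the other gene lists and the alternatives were chosen with earlier results of these data known. The text names all 10 genes, of each other list the called genes and the highest and lowest expressed ones, and the 5 genes nearest to the median pattern. Of 100 listed symbols 91 were measured. Promoter windows came from RefSeq. Protein sequences were not used here, so isoform identity was not computed.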

Additional observations from a re-analysis of the deposited data

How the results depend on the processing

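Of the 11 alternatives, only quantile normalization, median centring, loess and the mean over probe sets changed a log2 fold change, the last for TPI1 alone. The others changed calls only, so directions and medians could not differ under them. Where log2 fold changes could differ, the direction of each of the 10 genes held in both fractions. Over genes, fractions and alternatives 213 values kept their call, 4 gained one and 3 lost it. The number of genes that rose was between 2 and 4 in total RNA and between 2 and 3 in ER-RNA, and the median log2 fold change between 0.33 and 0.52 in total RNA and between 0.24 and 0.37 in ER-RNA. PGK1 was not called in either fraction at a fold threshold of 2, and in ER-RNA also not when the scaled MAD gave the SD. TPI1 rose in total RNA by fold change alone. By fold change alone 1 gene, LDHB, fell in each fraction, and after median centring 1 fell in total RNA. The difference between ENO2 and ENO1 in total RNA was 2.61 after quantile normalization, and the cause was not tested. The log2 fold change of GAPDH lay between 0.015 and 0.12 in total RNA and between 0.048 and 0.21 in ER-RNA. No paired analysis was possible because each group holds 1 array, and for the same reason no replicate could be left out.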

Other observations

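Shuttles by which the cytosol regains NAD+ without lactate dehydrogenase were measured through 5 genes of their enzymes, of which 4 were expressed. In total RNA 3 of them fell, in ER-RNA 1 fell, and the medians over the 5 were -0.85 for total RNA and -0.84 for ER-RNA. GOT1, the cytosolic aspartate aminotransferase, fell by 1.34 in total RNA and by 1.27 in ER-RNA and was lowest in both. MDH1, the cytosolic malate dehydrogenase, fell by 0.85 in total RNA, while its ER-RNA value of -0.90 was not called (z-score -2.77), and GPD1L, a glycerol 3-phosphate dehydrogenase, fell by 1.24 in total RNA and had an uncalled -0.84 in ER-RNA. GPD1L passed the filter through the control arrays alone, where it was high, so its call in total RNA and its place in the count of 3 rest in part on the filter. GPD2, the mitochondrial partner of that shuttle, had the highest expressed value in both fractions (-0.069 and -0.58) and was not called.

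Of 4 splicing factors known to act on PKM, none was called in total RNA, where PTBP1 was at -0.15 and HNRNPA2B1 at -0.37, the highest and lowest of the expressed ones. The probe set of HNRNPA1 did not pass the expression filter in either fraction, so that gene could not be called. HNRNPA2B1 fell by 1.26 in ER-RNA, where PTBP1 was at -0.33. None of 4 transcription factors known to act on glycolytic genes was called in either fraction, with EPAS1 highest in total RNA (0.20), MYC highest in ER-RNA (0.20) and HIF1A lowest in both (-0.23 and -0.57).

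The genes whose log2 fold changes in both fractions lay nearest to the median of the 10 (0.40 and 0.32), by Euclidean distance, were FZD1, AVP, UTF1, LRATD1 and MIR197. Their values were between 0.39 and 0.41 in total RNA and between 0.31 and 0.33 in ER-RNA, and none was called. Likeness over 2 differences from 4 arrays describes the arrays and carries no test.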
